A study of Mus musculus with 6 samples.

Results

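Choroid plexus marker genes were followed in bulk RNA-seq libraries of the primary somatosensory (S1) cortex of mice. The set of 10 markers of the choroid plexus epithelium comprised the secreted proteins Ttr, Enpp2, Kl and Sostdc1, the receptors Folr1 and Prlr, the channels Kcnj13, Clic6 and Aqp1, and the transcription factor Otx2, and its genes were taken from the expression table by gene symbol. Of the 10 genes, 9 were found among the 14824 genes of the table, and Ttr was not analysed here. The libraries came from wild-type C57B6 mice at postnatal day 21, with 3 libraries after daily whisker stimulation (WS), collected 90 minutes after the last session, and 3 libraries of non-stimulated cortex (NS), which GEO's labels call the NW control and list with no treatment. By the study's description, WS is the cortex opposite the brushed whiskers and NS the cortex on the same side as them. Each library is a piece of whole tissue, and the cell types its labels list are neurons, astrocytes, endothelial cells, oligodendrocytes, pericytes and microglia, so choroid plexus epithelium is not among them. All 6 libraries share strain, genotype and age, and nothing in the labels says that they came from separate litters or dissection days. The study asked how stimulation changes the cortex, and the comparison here is whether the choroid plexus markers were among the genes that changed.

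The choroid plexus is a folded, vascular tissue that hangs in the ventricles of the brain and lies outside the cortex. Its epithelial cells secrete cerebrospinal fluid by moving ions and water from blood to ventricle, form a barrier joined by claudins, and carry vitamins and hormones into the fluid. Folate, thyroid hormone, retinol, klotho and several growth factor antagonists all pass through or are made by this epithelium. Its identity in development and adulthood depends on the homeodomain factor Otx2. Neurons and glia of the cortex express most of these genes weakly, while Enpp2 is also made by oligodendrocytes and Kl is also found in some neurons.

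To show the DNA in front of genes that moved together, 3 of the promoters are printed, those of Kl, Kcnj13 and Aqp1, each as the 250 bases before the transcript start in the RefSeq table (GRCm38.p6), 5′ to 3′ on the gene's own strand. RefSeq windows were matched for 5 of the 9 genes (Kl, Kcnj13, Otx2, Aqp1 and Prlr) and amounted to 10 windows. Capitals mark the letters of 4 motifs, searched on both strands: TAATCC, which OTX-type homeodomains bind, TATAAA for the TATA box, CCAAT for the box of that name, and GGGCGG for the GC box. None of these motifs overlapped another in the printed windows.
Kl, chr5:150952357-150952606, plus strand: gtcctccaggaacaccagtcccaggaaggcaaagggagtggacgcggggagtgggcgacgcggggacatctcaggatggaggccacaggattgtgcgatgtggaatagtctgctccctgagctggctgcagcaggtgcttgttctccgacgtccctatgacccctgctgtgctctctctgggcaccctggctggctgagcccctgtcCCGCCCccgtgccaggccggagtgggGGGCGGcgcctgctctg
Kcnj13, chr1:87394730-87394979, minus strand: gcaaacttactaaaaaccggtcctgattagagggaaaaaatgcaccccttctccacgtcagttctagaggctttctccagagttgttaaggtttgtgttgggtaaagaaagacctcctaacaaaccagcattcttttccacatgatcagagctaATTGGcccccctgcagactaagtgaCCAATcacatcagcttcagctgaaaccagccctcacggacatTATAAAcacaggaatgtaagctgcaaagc
Aqp1, chr6:55336049-55336298, plus strand: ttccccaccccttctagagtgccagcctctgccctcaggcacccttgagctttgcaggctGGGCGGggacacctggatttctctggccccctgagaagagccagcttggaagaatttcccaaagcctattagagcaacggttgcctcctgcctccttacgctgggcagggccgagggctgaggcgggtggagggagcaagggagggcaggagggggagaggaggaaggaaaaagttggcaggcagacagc

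The windows of Kl and Aqp1 lie outside annotated genes, and that of Kcnj13 lies in an intron of Gigyf2, which is read from the other strand. The 3 promoters differ in makeup. The Kl window is 66.8% G and C and holds 2 GC boxes, 17 and 43 bases before the start. The Aqp1 window is 62.0% G and C with 1 GC box. The Kcnj13 window is 45.2% G and C and has a TATA box 29 bases before the start, and CCAAT letters 71 bases before it on the gene's strand and 96 bases before it on the other. The OTX letters were found in 1 of the 10 windows, 211 bases before an internal start of Otx2, in a window that overlaps an Otx2 exon and is not printed. They occur in 6.25% of all 32851 RefSeq windows of this length and in 5.1% of the 14890 windows of genes in the table. The TATA letters were in 2 of the 10 windows, in 12.4% of all windows and in 6.96% of those of genes in the table. For the CCAAT letters these were 3 windows, 33.8% and 34.7%, and for the GC box letters 2 windows, 32.7% and 54.9%. A match is only a match of letters. None of the 4 motifs was found in the windows of all 5 genes, whose RNA levels are compared across libraries below.

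The libraries held between 15660395 and 17276168 counts over the listed genes. Levels are given as counts, and as CPM, the unit of counts relative to the library's total, with totals normalized by edgeR's TMM method. WS replicate 1 was the deepest library, with the other 5 between 15660395 and 16064953 counts, and had the lowest TMM factor, 0.977 against 0.998 to 1.01. It also stood apart at the low end of the choroid plexus genes. The part of its depth in those levels was not tested, and the gaps between libraries are given with and without it.

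Of the secreted and membrane-shed proteins, Enpp2 was the most abundant. Enpp2 encodes autotaxin, the enzyme that makes lysophosphatidic acid (chromosome 15 of GRCm38, 54838901 to 54952892, minus strand). Its counts were 7118, 10222 and 12526 in NS replicates 1, 2 and 3 and 4910, 14204 and 9169 in WS replicates 1, 2 and 3. The lowest and the highest value were both in WS, and the NS libraries lay between them. Per kilobase of exon its level, 104 CPM on average over the 6 libraries, was far above the next gene, Kcnj13, at 6.2. After these came Clic6 and Sostdc1 at 3.04 each, Folr1 at 2.82, Kl at 2.38 and Aqp1 at 1.97 CPM per kilobase, values that lay closer to each other than the libraries of any of these genes did. Otx2 at 1.03 and Prlr at 0.637 CPM per kilobase were lowest.

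Kl encodes klotho, a co-receptor for FGF23 that is also shed into cerebrospinal fluid (chromosome 5, 150952607 to 150993817, plus strand). It was counted 251, 305 and 565 times in NS and 70, 618 and 332 times in WS. Again WS replicate 1 was lowest and WS replicate 2 highest, with a 9.22-fold gap in CPM between them, which was 2.42-fold over the 5 libraries without WS replicate 1. Sostdc1 encodes a secreted antagonist of BMP and Wnt signalling (chromosome 12, 36314139 to 36318452, plus strand). Its counts were 61, 80 and 100 in NS and 19, 186 and 76 in WS. The 3 NS libraries lay within 1.62-fold of each other in CPM, the narrowest NS range of the 9 genes, while the WS libraries spanned 10.2-fold, and without WS replicate 1 the other 5 libraries spanned 2.99-fold.

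Folr1 and Prlr are the receptors of the set. Folr1 encodes folate receptor alpha, which takes folate across the epithelium (chromosome 7, 101858331 to 101870788, minus strand). It had 46, 114 and 184 counts in NS and 11, 188 and 81 in WS. This was the widest spread of the set over 6 libraries, 17.8-fold in CPM, and it was 4.01-fold without WS replicate 1. Prlr encodes the prolactin receptor (chromosome 15, 10177238 to 10349180, plus strand). Its counts were 101, 144 and 257 in NS and 17, 282 and 140 in WS, a 17.3-fold spread in CPM that was 2.74-fold without WS replicate 1. In both receptors NS replicate 3 and WS replicate 2 were close to each other, at 11.4 and 11.6 CPM for Folr1 and 16 and 17.4 CPM for Prlr, so the groups overlapped at the top as well as in the middle.

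Ion and water transport is the main work of the epithelium, and 3 of the genes serve it. Kcnj13 encodes the inward rectifier potassium channel Kir7.1 of the apical membrane (chromosome 1, 87386363 to 87394729, minus strand). It had 90, 132 and 179 counts in NS and 36, 200 and 122 in WS. Its 5.8-fold spread in CPM, or 2.18-fold without WS replicate 1, was the narrowest after that of Enpp2. Clic6 encodes an intracellular chloride channel family protein (chromosome 16, 92485736 to 92541243, plus strand), with counts of 110, 182 and 275 in NS and 44, 386 and 152 in WS. Aqp1 encodes the water channel aquaporin 1 of the apical membrane (chromosome 6, 55336432 to 55348555, plus strand), with counts of 44, 76 and 131 in NS and 18, 177 and 54 in WS. The 3 transport genes kept 1 order of libraries, from WS replicate 1 through NS replicate 1, WS replicate 3, NS replicate 2 and NS replicate 3 up to WS replicate 2.

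Otx2, the homeodomain transcription factor of the set (chromosome 14, 48657677 to 48673819, minus strand), was the exception at the top. It was counted 31, 51 and 72 times in NS and 11, 119 and 133 times in WS. WS replicate 3 was therefore its highest library, at 8.4 CPM, although the other 8 genes put that library at rank 3 or 4 from the bottom. Within the summed CPM of the 8 genes other than Enpp2, Otx2 made up 12.2% in WS replicate 3 and between 4.08% and 5.52% in the other 5 libraries.

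Reads of overlapping genes could not always be told apart, because the sources used here do not say whether counting used strand. Exons overlap those of an opposite-strand gene for Kcnj13 (Gigyf2), Otx2 (Otx2os1) and Enpp2 (Gm26684), and those of a same-strand gene for Otx2 (Gm49154) and Prlr (Gm21973). Folr1 and Clic6 share their span with another gene but no exon, and Kl, Aqp1 and Sostdc1 overlap no annotated gene.

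**Figure D1:**
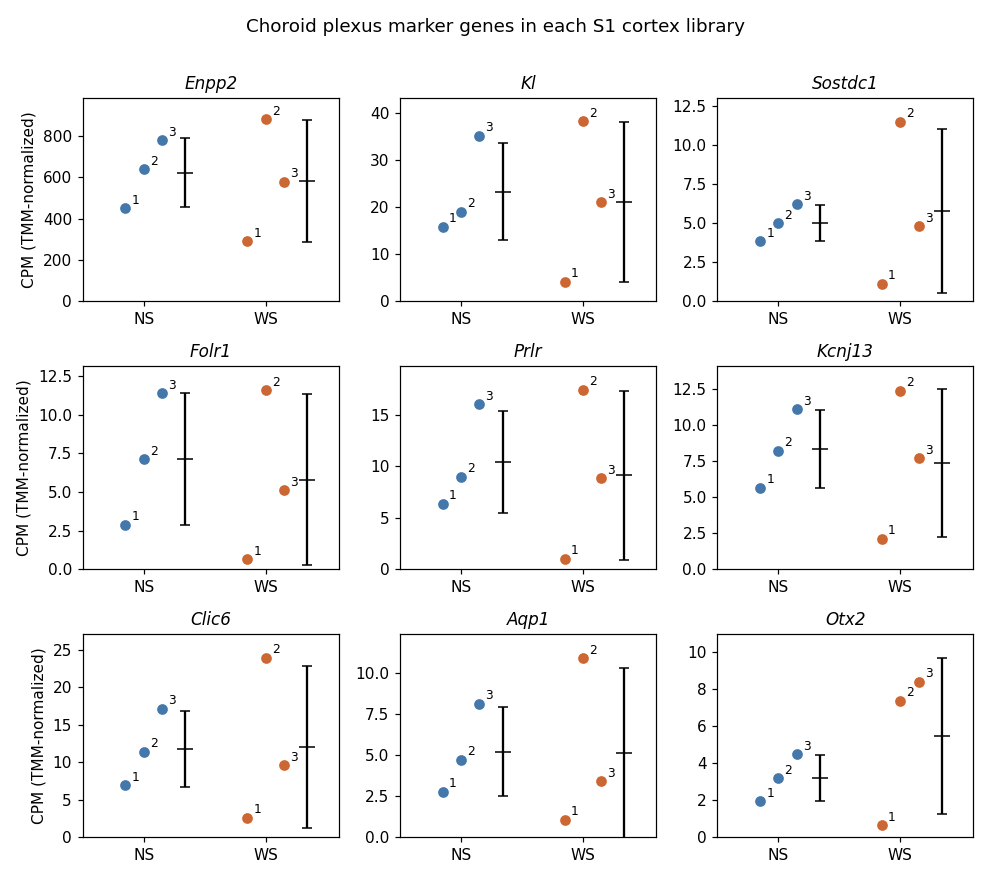
Level of each of the 9 choroid plexus marker genes in TMM-normalized CPM (vertical axis, from 0, scaled per gene) in the 3 NS and 3 WS libraries. Points are libraries labelled by replicate number, and the bars give mean ± SD (n = 3), cut at 0 for Aqp1 in WS. WS replicate 1 is the lowest point in all 9 panels and WS replicate 2 the highest in 8, with the NS points between them.

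All 9 genes ranked the libraries in nearly the same way. WS replicate 1 was lowest in 9 of 9, against 25.8% of all tested genes, and WS replicate 2 was highest in 8 of 9, against 11.3%. NS replicate 1 was second lowest in 9 of 9, a share not computed over all genes, and 7 genes shared 1 complete order. Kl differed from this order by a swap of NS replicate 2 and WS replicate 3, and Otx2 by the place of WS replicate 3. The pattern of lowest in WS replicate 1 and highest in WS replicate 2, which was picked after the values were seen, held for 8 of the 9 genes and for 2.92% of all 13747 genes tested. A gap of more than 2-fold between the highest and the lowest library was seen in 9 of 9 genes and in 7.71% of all tested genes. The median gap was 10.2-fold over the 9 genes and 1.29-fold over all tested genes. Much of the gap rested on WS replicate 1. Without it, the median gap was 2.99-fold over the 9 genes and 1.23-fold over all tested genes, and 8 of 9 genes, all but Enpp2, were past 2-fold, against 6.13% of all tested genes. Otx2 then had the widest gap, at 4.3-fold.

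The swings differed in size from gene to gene. Relative to each gene's own mean on the log2 CPM scale, WS replicate 1 lay lowest for Prlr (-2.72) and Folr1 (-2.63) and least low for Enpp2 (-0.96). At the other end, WS replicate 2 was 1.40 above the mean for Aqp1 and 0.63 above it for Enpp2. Enpp2 thus moved in the same order as the others over a smaller range, 3.02-fold in all and 1.96-fold without WS replicate 1. The ratio of Enpp2 counts to Kl counts was between 22.2 and 33.5 in 5 libraries and 70.1 in WS replicate 1, the library with the lowest Kl. Oligodendrocyte markers, which mark another cell type that makes Enpp2, had summed levels of 10396 CPM in WS replicate 1 and 8787 to 13934 CPM over all 6 libraries, and were present in every library. Their part in the Enpp2 level was not tested.

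Against Kl, Otx2 varied as widely as Enpp2, with a count ratio of 0.124 to 0.193 in 5 libraries and 0.401 in WS replicate 3. The ratios of other genes covered narrower ranges. The count of Clic6 was between 0.438 and 0.629 and that of Sostdc1 between 0.177 and 0.301 of Kl over the 6 libraries. Prlr was 0.402 to 0.472 of Kl in 5 libraries and 0.243 in WS replicate 1, where it rests on 17 counts. Folr1 was 0.157 of Kl there, on 11 counts, and 0.183 to 0.374 elsewhere. Counting error alone is large at such counts.

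**Figure D2:**
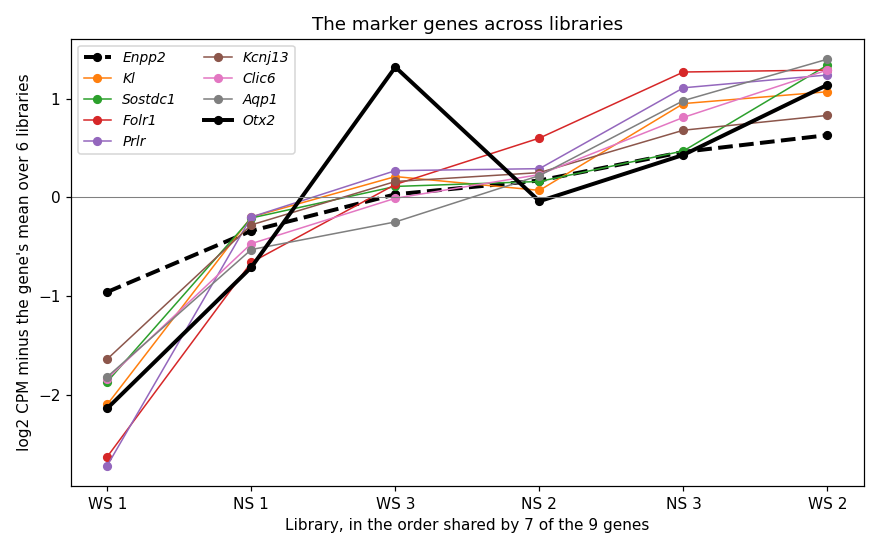
Deviation of each gene from its own mean over the 6 libraries in log2 CPM (vertical axis), with libraries placed in the order that 7 of the 9 genes share. Lines climb from WS replicate 1 to WS replicate 2, Enpp2 (dashed) over the smallest range, and Otx2 (thick) peaks at 1.32 in WS replicate 3.

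Pearson's r of log2 CPM was computed for all 36 pairs of the 9 genes, with exact two-sided permutation tests over the 720 pairings (smallest possible p = 0.00278) and Benjamini-Hochberg adjustment over the 36 pairs. Among the 28 pairs without Otx2, r was 0.95 to 1.00 and Spearman's rho 0.94 to 1.00, with exact permutation p adjusted to between 0.00476 and 0.0107 for r and between 0.00476 and 0.0214 for rho. With the 2 libraries farthest from the median of the first gene left out, r in these 28 pairs was 0.76 to 1.00 with a median of 0.96, so the relation did not rest on those libraries. The 8 pairs with Otx2 were weaker. Their r was 0.80 to 0.89 and their rho 0.66 to 0.83, and by exact permutation test 2 of the 8 had an adjusted p under 0.05 for r (lowest 0.0483) and 0 for rho (lowest 0.0724). In the Otx2 pairs, r without 2 libraries depended on which gene set them. It was -0.17 to 0.48 in the 4 pairs where the other gene did (Kl, Folr1, Clic6 and Kcnj13) and 0.95 to 0.98 in the 4 where Otx2 did (Aqp1, Enpp2, Prlr and Sostdc1), so nothing is read from it for Otx2. The 6 points of each correlation share their libraries and the 2 groups. Because the genes share nearly 1 order of libraries, the 36 pairs are not separate results. Correlations over pairs of all tested genes were not computed.

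Within-group scatter was therefore large. The SD of log2 CPM within groups ranged from 0.64 for Enpp2 to 1.58 for Folr1 with a median of 1.23 over the 9 genes, against a median of 0.14 and a 95th percentile of 0.43 over all tested genes. Without WS replicate 1 the SD of the 9 genes was 0.41 to 0.93 with a median of 0.60, against a median of 0.12 and a 95th percentile of 0.41 over all tested genes. In bulk tissue, fewer choroid plexus cells and less RNA per cell cannot be told apart.

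The choroid plexus markers did not differ detectably between WS and NS. In the quasi-likelihood test of edgeR, adjusted by Benjamini-Hochberg over 13747 genes, 0 of 9 passed an adjusted p under 0.05 with an absolute log2 fold change above 1, where 0.0291% of all tested genes passed. At an unadjusted p under 0.05 there were also 0 of 9, against 1.19% of all tested genes, and DESeq2 gave 0 by either rule. No gene of the 9 had every WS library above every NS library (3.11% of all tested genes) or every WS library below (3.16%). Each of the 9 genes had an adjusted p of 0.9998 in edgeR's test.

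Sums and means were close in the 2 groups. The 9 genes together made up 495, 706 and 888 CPM in NS and 304, 1012 and 648 CPM in WS. The NS mean was 696 ± 196 and the WS mean 655 ± 354 (± SD over 3 libraries), a ratio of 0.941. Without Enpp2, which dominates that sum, the other 8 genes came to 46.3, 67.7 and 110 CPM in NS and 13.4, 133 and 68.8 CPM in WS, with a ratio of 0.965. The ratio of the 9-gene sums was 1.19 without WS replicate 1 and 0.684 without WS replicate 2, so its direction rested on single libraries. The SD in WS was larger than in NS for each of the 9 genes, and the WS libraries held both ends of the range for 9 of 9. The genes share nearly 1 order of libraries, so these are not 9 separate observations. The shares over all tested genes were not computed.

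Of the secreted proteins, Enpp2 gave a log2 fold change of -0.09 (SE 0.30, 95% interval -0.76 to 0.57) in edgeR. This was the narrowest interval of the set and leaves out a change of 1 in either direction. The DESeq2 interval of Enpp2, -1.06 to 0.87, reaches past -1, so a 2-fold fall is not excluded by both methods. Kl averaged 23.3 ± 10.3 CPM over the NS libraries and 21.1 ± 17 over the WS libraries (± SD, n = 3), with a log2 fold change of -0.15 (interval -1.29 to 0.99). Sostdc1 was at 5.02 ± 1.18 and 5.81 ± 5.26 CPM, with a log2 fold change of 0.21 (interval -0.95 to 1.36). For the receptors, Folr1 gave -0.31 (-1.71 to 1.09) and Prlr gave -0.20 (-1.51 to 1.10). Among the transport genes, Kcnj13 gave -0.18 (-1.13 to 0.77), Clic6 0.02 (-1.15 to 1.20) and Aqp1 -0.03 (-1.32 to 1.26). Apart from that of Enpp2, each edgeR interval reaches past 1 in at least 1 direction, so a 2-fold change in that direction is not excluded. DESeq2 gave nearly the same fold changes with wider intervals, up to -2.43 to 1.83 for Folr1.

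Otx2 had the largest difference, with a mean of 3.2 ± 1.26 CPM over NS and 5.47 ± 4.21 over WS libraries (± SD, n = 3). The fitted log2 fold change of 0.76 (SE 0.59, interval -0.52 to 2.05) had an unadjusted p of 0.219 by edgeR's quasi-likelihood test. WS replicates 2 and 3 were above all NS libraries and WS replicate 1 was below them. An exact two-sided permutation test of its log2 CPM gave p = 1, and the other 8 genes gave 0.7 to 0.9 by the same exact test, which cannot go below 0.1 with 3 libraries against 3. With the replicate number as a block its fold change was 0.60 (unadjusted p = 0.0356 and adjusted p = 0.9999 by edgeR's quasi-likelihood test). Without WS replicate 1 its log2 fold change was 1.30 (unadjusted p = 0.000404 and adjusted p = 0.5092 by the same test).

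**Figure D3:**
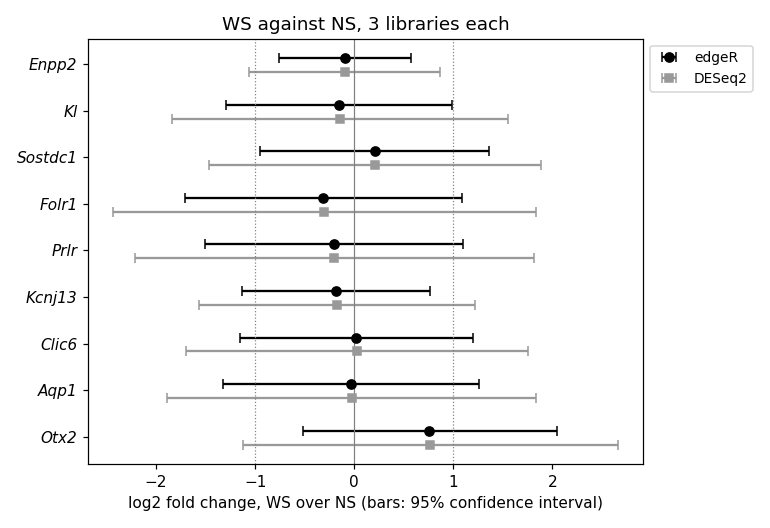
Log2 fold change of WS over NS for each choroid plexus marker gene (horizontal axis), with 95% confidence intervals from edgeR (black circles) and DESeq2 (grey squares), 3 libraries per group. Dotted lines mark a change of 1 in either direction. Every interval crosses 0, and the point farthest from 0 is Otx2 at 0.76.

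The direction changed with single libraries of either group. With NS replicate 3 left out, 6 genes turned positive, namely Kl (0.27), Folr1 (0.20), Kcnj13 (0.08), Aqp1 (0.45), Enpp2 (0.10) and Prlr (0.24), and the ratio of the 9-gene sums was 1.09. With WS replicate 1 left out, all 9 fold changes were positive, from 0.23 for Folr1 and Enpp2 to 1.30 for Otx2, and Sostdc1 at 0.70 had an unadjusted p of 0.0463 (edgeR, adjusted p = 1.0000). With WS replicate 2 left out, 8 of 9 were negative, from -0.52 for Enpp2 to -1.34 for Folr1, and Aqp1 at -1.24 had an unadjusted p of 0.0241 (adjusted p = 0.9998, same test). Otx2 was positive in both, at 0.47 without WS replicate 2. Even the sign depended on how values were averaged for Clic6 and Sostdc1, whose mean log2 CPM was lower in WS by 0.38 and 0.28, whereas their fitted fold changes of 0.02 and 0.21 were positive.

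A second list of choroid plexus genes shared the pattern of the 9 in part. Of 26 further genes, 23 were in the table and 22 were tested. None passed the threshold or an unadjusted p of 0.05 in edgeR's test, 9 of the 22 were higher in WS, and their median log2 fold change was -0.01, beside a median of 0.01 over all tested genes. Lowest in WS replicate 1 were 14 of the 22 and highest in WS replicate 2 were 18, where 25.8% and 11.3% of all tested genes were. Both held for 11 of the 22. Some genes of this list varied as widely as the 9. Cldn2, a claudin of the leaky tight junction, had 54, 102 and 147 counts in NS and 7, 159 and 82 in WS. Slc4a5, a sodium bicarbonate cotransporter, had 49, 86 and 141 counts in NS and 9, 176 and 69 in WS. Igfbp2, the most abundant of the list and made by other brain cells as well, had 813, 732 and 960 counts in NS and 974, 1200 and 740 in WS, and did not share the order.

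The genes outside the set most like it were found by Pearson's r with the mean log2 CPM of the 9 genes over the 6 libraries, among 1407 genes with a mean count of at least 10 and an SD of at least 0.3. The 5 highest were Slc4a5 (r = 0.996), F5 (0.996), Kcne2 (0.994), Mfrp (0.987) and Krt18 (0.986). Slc4a5, F5 and Kcne2 were in the second list. Kcne2, a potassium channel subunit, had 36, 57 and 93 counts in NS and 7, 117 and 45 in WS. Mfrp, a membrane frizzled-related protein, had 37, 68 and 139 counts in NS and 15, 169 and 79 in WS. Krt18, a simple epithelial keratin, had 1 count in WS replicate 1 and 40 in WS replicate 2. These correlations are descriptions over 6 libraries.

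Markers of neighbouring tissue were summed in each library for comparison. Ependymal markers, from the ciliated lining of the ventricles, summed to 20.8, 31.6 and 39.8 CPM in NS and 25.1, 37.7 and 27.5 in WS. The highest 2 libraries, NS replicate 3 and WS replicate 2, were also the highest 2 in the choroid plexus sum. The lowest was NS replicate 1 and not WS replicate 1, 1 of the 11 tested genes was lowest in WS replicate 1 and highest in WS replicate 2, and the gap between highest and lowest was 1.91-fold. Of the 13 listed ependymal genes, 11 were tested, and none of these 11 was at 0 counts in any library. Foxj1, the ciliogenesis factor, was the most abundant at 11.7 CPM on average. Striatal markers summed to 356, 484 and 496 CPM in NS and 362, 753 and 349 in WS. WS replicate 2 was highest here too, with 204 counts of Six3 against 9 to 33 in the other libraries, and Ppp1r1b was the most abundant at 155 CPM. Thalamic markers, led by Rora at 92.3 CPM, summed to 172 to 228 CPM and were highest in WS replicate 3, the library in which Otx2 was highest. The part of ventricular, striatal or thalamic tissue in the choroid plexus levels was not tested.

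Meningeal fibroblast markers summed to 290, 246 and 237 CPM in NS and 284, 321 and 233 in WS, with 0 of 13 past the threshold. The sum was highest in WS replicate 2 and lowest in WS replicate 3, as was Igf2, the most abundant at 120 CPM. Ogn and Islr were also highest in WS replicate 2. Col1a1, Col1a2, Slc6a13, Fmod, Slc22a6 and Crabp2 were instead highest in WS replicate 1 and lowest in NS replicate 3. Lum, Dcn and Aldh1a2 were highest in NS replicate 1 and Col3a1 in WS replicate 3. The pattern of lowest in WS replicate 1 and highest in WS replicate 2 held for 0 of the 13. Col1a2 and Col3a1, fibrillar collagens, had log2 fold changes of 0.29 and 0.48 with unadjusted p-values of 0.0335 and 0.0198 (edgeR, adjusted p = 0.9998 for both). Cortical neuron markers, led by Slc17a7 at 2272 CPM, ranged from 2811 to 3561 CPM. Astrocyte markers, led by Slc1a2 at 2734 CPM, ranged from 4587 to 5935 CPM. Endothelial markers, led by Slco1a4 at 54.8 CPM, ranged from 338 to 440 CPM, and in this list Pecam1 had a log2 fold change of 0.87 (unadjusted p = 0.000532, adjusted p = 0.8129, same test). Oligodendrocyte markers, led by Mbp at 5224 CPM, were at a median log2 fold change of 0.19, and none of the 10 reached an unadjusted p under 0.05. Red blood cell markers, led by Hba-a1 at 216 CPM, ranged from 422 to 766 CPM. Fitted fold changes were above 0, with no test applied, for 53% of all tested genes. They were so for 12 of 13 meningeal, 10 of 10 oligodendrocyte, 10 of 10 astrocyte, 14 of 14 endothelial, 10 of 10 striatal, 7 of 7 thalamic and 5 of 5 red blood cell markers, but for 3 of 10 cortical neuron, 3 of 11 ependymal and 3 of 9 choroid plexus markers. In each of these lists every tested marker had counts in all 6 libraries. The widest gap of a sum, striatal and ependymal markers aside, was 1.82-fold, against 9.96-fold for the 8 choroid plexus genes without Enpp2 and 3.33-fold for all 9. Without WS replicate 1, the 8 genes spanned 2.88-fold, all 9 spanned 2.04-fold and the second choroid plexus list 1.69-fold, while the red blood cell sum still spanned 1.82-fold and the striatal sum 2.16-fold.

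**Figure D4:**
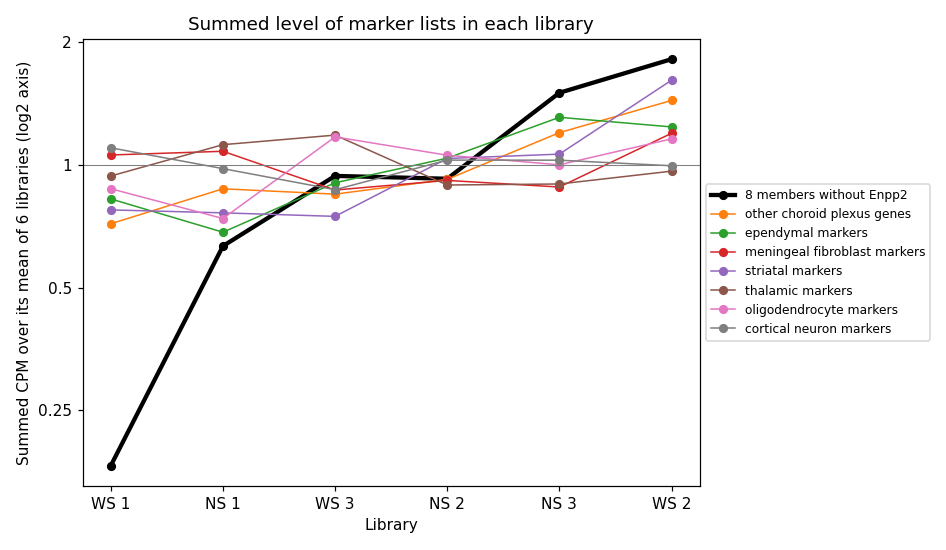
Summed CPM of marker lists in each library divided by its mean over the 6 libraries (vertical axis, log2 scale), with libraries in the same order as for the single genes. The 8 choroid plexus genes without Enpp2 (black) span 9.96-fold, or 2.88-fold without WS replicate 1, the other choroid plexus genes 2.01-fold, the striatal markers 2.16-fold and the cortical neuron markers 1.27-fold.

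Partners of the markers in their pathways did not differ detectably between the groups. Of all tested genes, 0.0291% passed the threshold and 1.19% had an unadjusted p under 0.05 in edgeR's test, so 0 in a short list does not set it apart. Of 12 carriers, transporters and receptors of thyroid hormone and retinol, led by Thra at 816 CPM, 0 passed the threshold and 0 had an unadjusted p under 0.05. Their median log2 fold change was 0.05. The same counts of 0 held for the folate transport and cycle genes (8 tested, median 0.03, led by Mthfd1 at 33 CPM) that work with Folr1. They held for the FGF genes that act with klotho (3 tested, median 0.08), of which Fgfr1 was the most abundant at 56.9 CPM and Fgf23 had only 9 to 18 counts. Around Prlr, the 8 signalling genes, the growth hormone receptor among them, had a median of 0.01 and were led by Jak2 at 41.3 CPM. Receptors and phosphatases for the lysophosphatidic acid made by Enpp2 had a median of 0.15 over 9 genes, led by Plpp3 at 285 CPM. The 12 ion and water transport genes used by the epithelium but shared with neurons and glia had a median of 0.06, led by Atp1b1 at 1966 CPM. The 10 BMP and Wnt pathway genes around Sostdc1 had a median of 0.05, led by Dkk3 at 283 CPM. In all 4 of these lists too, 0 genes passed either rule. The sums of the 7 lists spanned 1.07-fold to 1.29-fold between highest and lowest library.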

How the data were processed

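S1 cortex RNA was sequenced on the DNBseq platform, and the authors aligned the reads with HISAT2 after discarding rRNA and poor-quality reads. The submitters' processing notes name mm10, and the counting tool is not given in the sources used here. As deposited by the authors, the values used here are, per gene, an estimated count averaged over all 6 libraries, the SD of the counts, and for each library a z-score, which is a score they made by standardizing the count of the library with this mean and SD. A WS column carries an extra letter in its name, and it was read as WS replicate 3, the number left over, and the deposited WS mean equals the mean of the 3 columns so read. The count of a library was computed back as mean plus z-score times SD and rounded. In the 13418 genes with a rounding uncertainty under 0.1 count, 88.5% of values came back whole within it, and for the markers it was at most 0.1 count (Enpp2 1.7). The deposited fold change, p-value, FDR and −log10 columns, and a second table, hold the authors' own comparison and were not used. The design had been written for counts, and the count test was run on the counts computed back.

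edgeR 4.0.16 (TMM, filterByExpr, quasi-likelihood test, Benjamini-Hochberg over 13747 genes) was used in R 4.3.3, with DESeq2 1.42.0 as an alternative and SciPy 1.17.1 for permutation tests, and was tested on simulated data. The threshold, an adjusted p under 0.05 with an absolute log2 fold change above 1, is that of the study's methods. Other alternatives were other scalings, no filter on low counts, the replicate block, each library left out, and other thresholds. No pair of libraries agreed within sampling noise (lowest chi-square per degree of freedom 4.29), so each counted as 1 replicate. The libraries are separate samples in the labels, and p-values measure only the spread between them. Numbers come from the labels, and a caption of the study gives 3 male mice beside 3 WS and 3 NS libraries, with NS as the non-stimulated hemisphere, so both sides of the same mice may have been used, but the sources do not tie the numbers to mice. Deviations from the group means of same-numbered libraries correlated at 0.34, 0.23 and 0.12 over 13747 genes, so the numbers were treated as pairing the samples in a blocked fit beside the planned one. Over the 9 markers alone these correlations were 0.47, -0.11 and 0.11, and that of NS replicate 3 with WS replicate 2 was 0.70, so the markers themselves do not show the pairing.

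The markers and all gene lists were chosen with earlier results of these data known. Genes named are the 9 markers, list genes with an unadjusted p under 0.05, the most abundant gene of each list, and the 5 genes most like the markers. Cldn2, Six3, Fgf23 and the further meningeal genes were named after their values were seen. The likeness and the pair correlations were planned against Ttr, which was not analysed here, and used the mean of the 9 genes and all pairs instead. Gene positions came from GENCODE M21 on GRCm38.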

Additional observations from a re-analysis of the deposited data

How the results depend on the processing

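Under each alternative 0 of the 9 choroid plexus markers passed the threshold. Among all genes the count of 4 became 9 without WS replicates 1 and 2, where WS replicate 3 alone is assumed to vary like the NS libraries, and 164 with an unadjusted p under 0.05 as the only rule, and leaving out single libraries gave 0 (without NS replicate 2 or NS replicate 3) to 6. Other scalings, no filter and DESeq2 kept the direction of all 9 fold changes. The ratio of summed levels ranged from 0.684 to 1.19 with 1 library left out, and the median r over the pairs stayed at 0.96 to 0.97.

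With the replicate number as a block, which was the paired fit, the log2 fold change of Clic6 was -0.21 and that of Sostdc1 -0.03, both reversed from the unblocked values, and 6 genes of all passed the threshold. Among the choroid plexus markers, the block changed no call by either rule other than the unadjusted p of Otx2. Without WS replicates 1 and 2, an alternative chosen after seeing the data, Clic6 was at -0.30 and Sostdc1 at -0.07. Otx2 kept its direction there, at 1.39.

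Leaving out 1 library at a time turned the direction of 8 of the 9 genes. The lowest and highest log2 fold changes were -0.91 to 0.34 for Kl, -1.34 to 0.23 for Folr1, -0.97 to 0.51 for Clic6, -0.78 to 0.27 for Kcnj13, -1.24 to 0.46 for Aqp1, -0.52 to 0.23 for Enpp2, -1.11 to 0.33 for Prlr and -0.78 to 0.70 for Sostdc1, in each case lowest without WS replicate 2 and highest without WS replicate 1. Otx2 stayed positive, from 0.31 without WS replicate 3 to 1.30 without WS replicate 1. Fewer libraries are the construction of these alternatives, and any further cause was not tested. The planned correlations with Ttr and the planned sum without Ttr were not run, because Ttr was not analysed here. Counts of 11 to 70 in WS replicate 1 limit the precision of 8 of the markers there.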
